A study of Mus musculus with 11 samples.

Results

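The genes described here are the 4 Id genes (Id1, Id2, Id3 and Id4) and the 2 inhibitory Smad genes (Smad6 and Smad7), chosen by gene symbol as direct transcriptional targets and feedback inhibitors of BMP-SMAD signalling. All 6 were found among the 19935 genes measured, each through 1 transcript cluster, the array's unit for a gene or part of one. Expression was measured on 11 one-colour arrays of total RNA from mouse embryonic stem cells (ESCs), which are cultured cells of the early embryo that can give rise to all its tissues. The control is the wild-type line E14, and the mutant cells carry the genotype Bmpr1a-/-, so that they lack one of the type I receptors of the bone morphogenetic proteins (BMPs). The groups were control cells in ESC medium (n = 3), mutant cells in ESC medium (n = 2, numbered 2 and 3), control cells after 3 days in N2B27 (n = 3) and mutant cells after 3 days in N2B27 (n = 3). N2B27 contains no serum, and ESCs exit pluripotency in it. The mutant group draws on the lines C1-6, Fr124 and Fr88, without a record of which line is on which array, and the control is a single line. Genotype and cell line can therefore not be told apart in any comparison below. Whether replicate arrays hold RNA of separate cultures is not stated. The p-values thus measure the spread between arrays, which may be technical and, in mutant cells, may also lie between lines. The mutant arrays of the 2 media may not hold the same lines. Medium and line can then not be told apart in mutant cells, nor in the interaction.

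BMP ligands bind paired type I and type II receptors at the cell surface, and the type I receptor phosphorylates SMAD1, SMAD5 and SMAD9, which join SMAD4 and enter the nucleus. There the complex activates the Id genes, whose short proteins hold a helix-loop-helix dimerisation domain but no DNA-binding region, and so keep E proteins and other basic helix-loop-helix (bHLH) factors off DNA. SMAD6 and SMAD7 are made in response to the pathway and block it. SMAD6 acts mainly on the BMP branch, while SMAD7 acts on both the BMP and the TGF-beta, Activin and Nodal branches. In mouse ESCs, BMP from serum and Id proteins are known to act with LIF to hold back neural differentiation.

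Promoter windows of 4 members (Id2, Id3, Id4 and Smad6) were read from the RefSeq promoter table (build GRCm38.p6). It holds 300 bases per start, 250 before it and 50 after. The windows of the other members were not read, so nothing is said of their motifs. Shown are the windows of Id2 and Id3, which were called lower in mutant cells, and of Id4, which was not called. Capitals mark every match, on either strand, to GGCGCC and CAGAC (SMAD-binding elements), CACGTG and CAGCTG (E-boxes, the sites of bHLH dimers) and TGACG (the core of a cAMP response element).
Id2, chr12:25096043-25096342, minus strand: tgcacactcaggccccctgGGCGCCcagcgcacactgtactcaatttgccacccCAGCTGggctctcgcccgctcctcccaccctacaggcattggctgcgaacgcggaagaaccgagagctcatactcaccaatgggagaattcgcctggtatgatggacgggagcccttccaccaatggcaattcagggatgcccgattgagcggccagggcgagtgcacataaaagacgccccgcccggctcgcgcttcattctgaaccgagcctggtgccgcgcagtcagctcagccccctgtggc
Id3, chr4:136143572-136143871, plus strand: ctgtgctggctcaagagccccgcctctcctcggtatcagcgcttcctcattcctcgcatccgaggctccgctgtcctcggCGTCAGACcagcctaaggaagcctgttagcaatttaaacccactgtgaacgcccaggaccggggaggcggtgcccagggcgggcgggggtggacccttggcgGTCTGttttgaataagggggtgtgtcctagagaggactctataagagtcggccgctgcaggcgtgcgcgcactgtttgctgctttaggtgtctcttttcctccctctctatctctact
Id4, chr13:48260866-48261165, plus strand: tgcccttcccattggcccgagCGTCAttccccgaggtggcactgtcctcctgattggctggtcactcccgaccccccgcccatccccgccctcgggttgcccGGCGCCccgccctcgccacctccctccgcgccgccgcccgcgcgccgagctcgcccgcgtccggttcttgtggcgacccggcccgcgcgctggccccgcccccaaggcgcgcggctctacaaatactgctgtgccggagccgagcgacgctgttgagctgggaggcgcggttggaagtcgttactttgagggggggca
GGCGCC occurred once in the window of Id2, at -231 from the start, and once in that of Id4, at -148. It is present in 11.9% of 32851 promoter windows of this length. CAGAC occurred 2 times in the Id3 window, at -167 and -68, and is present in 49.6% of windows. The match at -167 overlaps a match to TGACG at -170, a motif also found in the Id4 window at -229 and in 20.8% of windows. CAGCTG occurred once, in Id2 at -196, against 16.3% of windows. CACGTG, present in 7.15% of windows, was not among the letters of these windows, and the Smad6 window held none of the 5 motifs. These matches describe sequence only, and their part in the expression values was not tested.

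Expression is given on the log2 scale as the distance from a gene's own baseline, which allows comparison between groups and not between genes. A log2 difference of 1 is a doubling. Differences are given with the moderated standard error (SE) of limma, and genes with an adjusted p (Benjamini-Hochberg, over all 19935 genes) under 0.05 are termed called. For Bmpr1a the control arrays gave 0.37, 0.16 and 0.25 in ESC medium and the mutant arrays -0.03 and 0.00. In N2B27 they gave 0.61, 0.68 and 0.76 against 0.15, -0.14 and -0.05. In both media the highest mutant array was below the lowest control array, as for 21.7% of all genes in ESC medium and 8.53% in N2B27. By limma Bmpr1a was not called in ESC medium (-0.27, SE 0.10, adjusted p = 0.145). It was called in N2B27 (-0.70, SE 0.09, adjusted p = 0.00211). The difference averaged over both media was -0.49 (SE 0.06, adjusted p = 0.00155). Of 10 marker genes of pluripotent cells, all 10 fell from ESC medium to N2B27 in each genotype. Because values are centred, no marker's absolute level can be given. One array stands apart from its group: the mutant array numbered 2 in N2B27, with a root mean square deviation from its group mean of 0.185, against 0.0774 to 0.155 for the others.

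Id1, Id2 and Id3 were highest in control cells in ESC medium. Id1 read 1.16, 1.50 and 1.37 in control cells in ESC medium, 0.82 and 0.81 in mutant cells in ESC medium, -0.30, 0.00 and -0.20 in control cells in N2B27 and -0.59, -0.20 and -0.53 in mutant cells in N2B27. The first 3 groups of this order did not overlap, while the 2 N2B27 groups did. Id2 read 0.90, 1.51 and 1.46, then -0.46 and -0.59, then -1.13, -0.76 and -0.93, and last -0.89, -0.44 and -1.57 in the same 4 groups. Control cells in ESC medium stood alone at the top, the mutant arrays in that medium lay above the control arrays in N2B27, and the mutant arrays in N2B27 spanned both. Id3 read 1.47, 1.58 and 1.36, then 0.94 and 0.43, then 0.04, 0.25 and -0.25, and last -0.23, 0.10 and -0.51. Its order was that of Id1, again with overlap between the 2 N2B27 groups only.

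Smad7 followed the medium more than the genotype, and Id4 and Smad6 stayed near their baselines. Smad7 read 1.22, 1.24 and 1.16 in control cells and 0.81 and 0.97 in mutant cells in ESC medium, then -1.42, -0.83 and -0.45 in control and -1.36, 0.00 and -1.05 in mutant cells in N2B27. Its spread was small in ESC medium (SD 0.04 in control) and wide in N2B27 (SD 0.49 in control and 0.71 in mutant), where the 2 genotypes overlapped. Id4 lay between -0.13 and 0.25 on all 11 arrays. Smad6 lay between -0.43 and 0.29, and in ESC medium both mutant arrays read 0.00, against 0.29, 0.13 and 0.05 in control. A gene that is not transcribed would also give values near its baseline, and centred values do not tell this apart from a steady level.

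**Figure D1:**
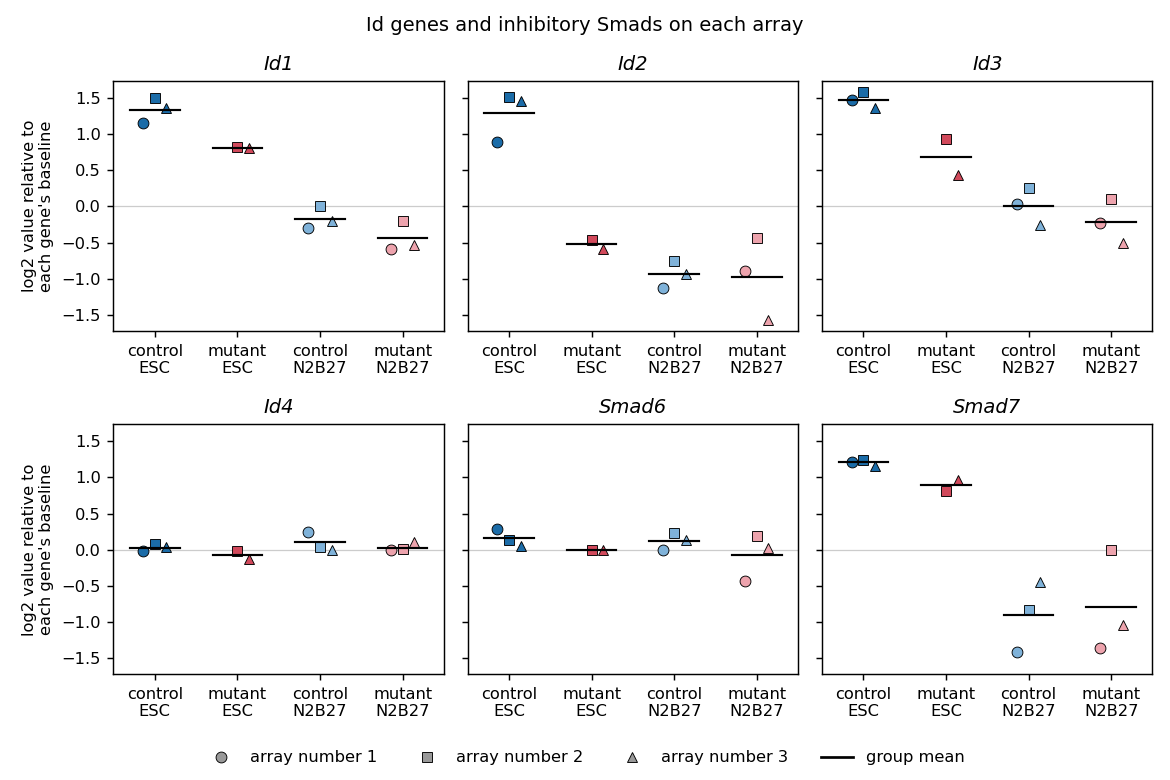
Log2 value relative to each gene's baseline (vertical axis) on each of the 11 arrays, by group (horizontal axis), for the 6 genes. Point shape gives the array number and the bar the group mean. Id1, Id2, Id3 and Smad7 are highest in control cells in ESC medium, while Id4 lies between -0.13 and 0.25 throughout.

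The first comparison asks how cells without the receptor differ from E14 cells in ESC medium. Id2 fell in mutant cells by 1.81 on the log2 scale, a 3.51-fold lower value (SE 0.28, 95% interval -2.45 to -1.18, adjusted p = 0.00514). That drop ranked 16 among all decreases by size. Id3 fell by 0.78 (SE 0.20, 1.72-fold, adjusted p = 0.0495), and Id1 had a difference of -0.53 (SE 0.14, 1.44-fold, adjusted p = 0.0502), which was not called. Thus 2 of the 6 members were called lower, where 3.05% of all genes were (3.09% were called higher and 6.14% in either direction). Smad7 differed by -0.32 (SE 0.36, 95% interval -1.11 to 0.48, adjusted p = 0.783), Smad6 by -0.16 (SE 0.16, adjusted p = 0.734) and Id4 by -0.10 (SE 0.08, adjusted p = 0.633). The fit shares 1 spread per gene over all groups. For Smad7 this carries the wide spread in N2B27 (SD 0.49 and 0.71), while in ESC medium the SD was 0.04 in control and 0.11 in mutant cells. Over the alternative settings of limma the adjusted p of Smad7 ran from 0.0558 to 0.96, without a call. The intervals of Id4 and Smad6 end at -0.29 and -0.51, short of the drop fitted for Id2. Both genes stayed near their baselines, where a gene that is not transcribed would also lie. Such a gene cannot show a drop, so no limit on a response is read from these intervals. Both mutant arrays lay below all 3 control arrays for 5 members, the exception being Id4, and the same held for 21.7% of all genes (17.7% lay above).

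The calls in ESC medium rested on few arrays. Id2 missed the threshold when mutant replicate 2 (adjusted p = 0.0528) or 3 (0.0507) was left out, with the difference at -1.87 and -1.75. Id3 missed it when any 1 of the 5 arrays was left out (0.0721 to 0.36), and its difference ranged from -1.04 to -0.53. Id1 was called without control replicate 1 (0.0275), the control array with the lowest Id1 value.

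**Figure D2:**
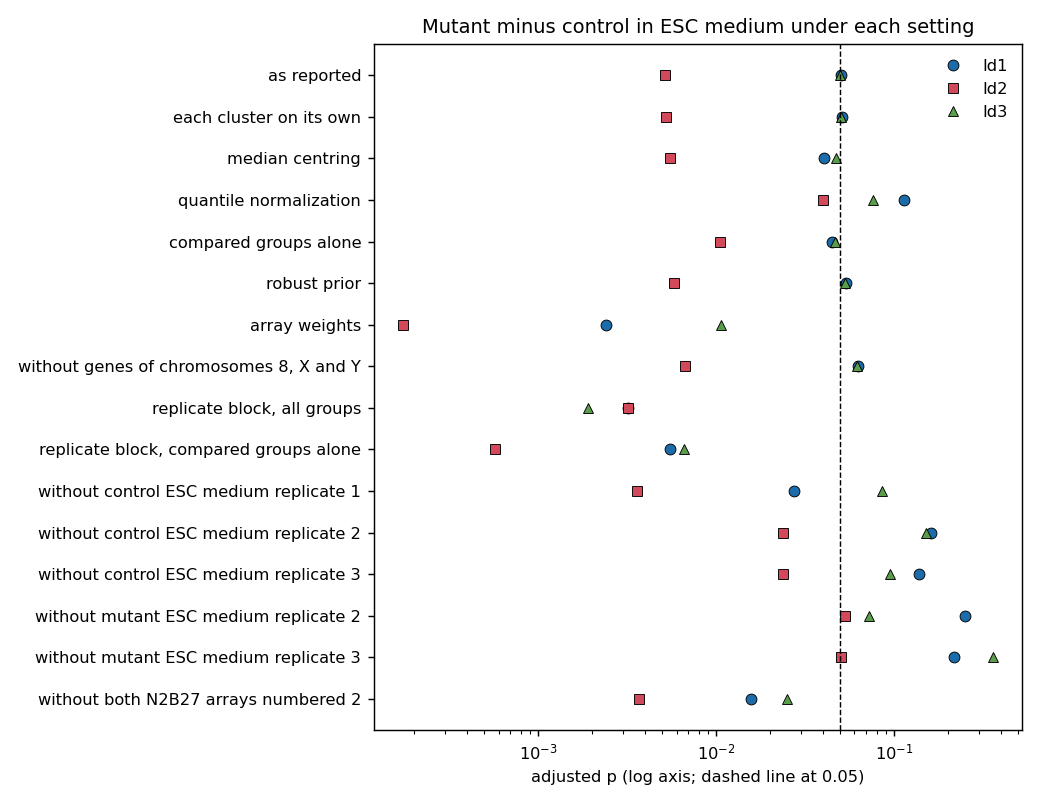
Adjusted p (horizontal log axis) of Id1, Id2 and Id3 for mutant minus control in ESC medium, under the reported setting and each alternative (vertical axis). The dashed line marks 0.05. Id2 lies left of it in all settings but those without mutant replicate 2 (0.0528) or 3 (0.0507), while Id1 and Id3 lie on both sides.

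Id2 was the member with the largest difference between genotypes in ESC medium, larger by 1.28 on the log2 scale than that of Id1 and by 1.03 than that of Id3. The difference of Id2 and Id1 within an array shows this directly. It was -0.26, 0.01 and 0.09 in control and -1.28 and -1.39 in mutant cells in ESC medium, with no overlap. In N2B27 it was -0.82, -0.76 and -0.74 in control and -0.30, -0.25 and -1.04 in mutant cells, which overlap. Such a ratio shows unequal change and not which gene changed.

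After 3 days in N2B27 no member differed between the genotypes by the test. Id1 was nearest to a call, at -0.27 (SE 0.12, 95% interval -0.54 to 0.00, adjusted p = 0.265). Id3 differed by -0.23 (SE 0.18, adjusted p = 0.596), Smad6 by -0.19 (SE 0.14, adjusted p = 0.558), Id4 by -0.06 (SE 0.07, adjusted p = 0.755) and Id2 by -0.03 (SE 0.25, adjusted p = 0.981). The 95% interval of Id2 ran from -0.59 to 0.54, which leaves out the drop of 1.81 fitted in ESC medium. Smad7 stood at 0.09 (SE 0.32, 95% interval -0.62 to 0.81, adjusted p = 0.939), and this sign turned to -0.31 without mutant replicate 2, the array that stands apart. Without it Id1 stood at -0.39 (0.0733), Id2 at -0.29 (0.517), Id3 at -0.38 (0.244) and Smad6 at -0.32 (0.191), with none called. Of the 6 members 0 were called, against 1.64% of all genes called lower, 4.1% higher and 5.74% in either direction by limma. Taken without regard to array number, the groups overlapped for each member, while 8.53% of all genes were lower and 11.7% higher in mutant cells without overlap. Between same-numbered arrays, mutant minus control was -0.28, -0.20 and -0.33 for Id1, -0.27, -0.15 and -0.26 for Id3 and -0.42, -0.04 and -0.11 for Smad6, below 0 in all 3 pairs. For Id2, Id4 and Smad7 the pairs had both signs. At an unadjusted p under 0.05 the count was also 0, the lowest p being 0.0522 for Id1. With the sample number as a block over all groups Id1 was called (adjusted p = 0.048), and in a blocked fit of these 2 groups alone it was not (0.107).

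Averaged over both media, which uses all 11 arrays, 3 of the 6 members were lower in mutant cells: Id1 by -0.40 (SE 0.09, adjusted p = 0.0224), Id2 by -0.92 (SE 0.19, adjusted p = 0.0141) and Id3 by -0.50 (SE 0.14, adjusted p = 0.0425). In this comparison 4.24% of all genes were called lower, 5.75% higher and 9.99% in either direction. Smad6 stood at -0.17 (adjusted p = 0.392), Smad7 at -0.11 (0.867) and Id4 at -0.08 (0.444). For Id2 this mean hides a difference between the media, given with the interaction below. Id1 was no longer called when an ESC medium array other than control replicate 1, or control replicate 2 in N2B27, was left out (0.0502 to 0.0883). Id2 was no longer called when either mutant array in ESC medium, number 2 (0.056) or 3 (0.0618), was left out. Id3 was no longer called on leaving out any 1 array but mutant replicate 2 in ESC medium and, in N2B27, control replicate 3 and mutant replicate 2 (0.0632 to 0.183).

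The next comparison is that of the media. In control cells Id2 fell by 2.23 (SE 0.25, 4.68-fold, adjusted p = 0.000222). Smad7 fell by 2.10 (SE 0.32, 4.30-fold, adjusted p = 0.00108). Id1 fell by 1.51 (SE 0.12, 2.84-fold, adjusted p = 4.12e-05), and Id3 fell by 1.46 (SE 0.18, 2.75-fold, adjusted p = 0.000337). Each N2B27 array lay below each ESC medium array for these 4 genes, as it did for 20.4% of all genes (23.5% lay above). Thus 4 of 6 members fell, where 13.3% of all genes were called lower, 12.8% higher and 26.1% in either direction. Id4 differed by 0.07 (SE 0.07, adjusted p = 0.62) and Smad6 by -0.04 (SE 0.14, adjusted p = 0.895). All 4 calls held without any 1 of the 6 arrays.

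In mutant cells 3 members fell on the same passage, where 10.3% of all genes fell, 14.9% rose and 25.2% did either. For these 3 the groups did not overlap, which held for 19.3% of all genes in this direction. The same held for 24.2% in the other direction, Id4 among them (0.00, 0.01 and 0.10 in N2B27 against -0.02 and -0.13), without a call. Smad7 fell by 1.69 (SE 0.36, 3.23-fold, adjusted p = 0.00617), Id1 by 1.25 (SE 0.14, 2.38-fold, adjusted p = 0.000163) and Id3 by 0.90 (SE 0.20, 1.87-fold, adjusted p = 0.00828). Id2, already low in mutant cells in ESC medium, differed by -0.44 (SE 0.28, 95% interval -1.08 to 0.19, adjusted p = 0.332), and its groups overlapped. Without mutant replicate 2 in N2B27 it was -0.70 (0.0603). Id4 stood at 0.11 (adjusted p = 0.428) and Smad6 at -0.07 (0.826). The call of Id3 was lost without mutant replicate 2 in ESC medium (0.108). Without mutant replicate 2 in N2B27, the array that stands apart, the difference of Smad7 was -2.10, and the calls of Id1, Id3 and Smad7 held. The 2 comparisons of media share no arrays with each other, but each shares its arrays with the comparisons of genotypes.

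Whether the genotype difference depends on the medium is the interaction, for which the value in ESC medium was subtracted from the value in N2B27. Id2 was called, at 1.79 (SE 0.38, 95% interval 0.94 to 2.64, adjusted p = 0.0447), where 1.57% of all genes were called in that direction, 0.552% in the other and 2.12% in either. The other 5 members were not. Id3 stood at 0.56 (SE 0.27, 95% interval -0.05 to 1.16, adjusted p = 0.417; 0.0415 with the replicate block, which calls it), Smad7 at 0.41 (SE 0.48, adjusted p = 0.811), Id1 at 0.26 (SE 0.18, 95% interval -0.15 to 0.67, adjusted p = 0.628), Id4 at 0.04 (adjusted p = 0.939) and Smad6 at -0.03 (adjusted p = 0.978). Leaving out 1 of 8 arrays ended the call of Id2 (0.0757 to 0.165), and it held on leaving out control replicate 1 in ESC medium or mutant replicate 2 or 3 in N2B27. Its value stayed between 1.53 and 2.09 without any 1 array.

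**Figure D3:**
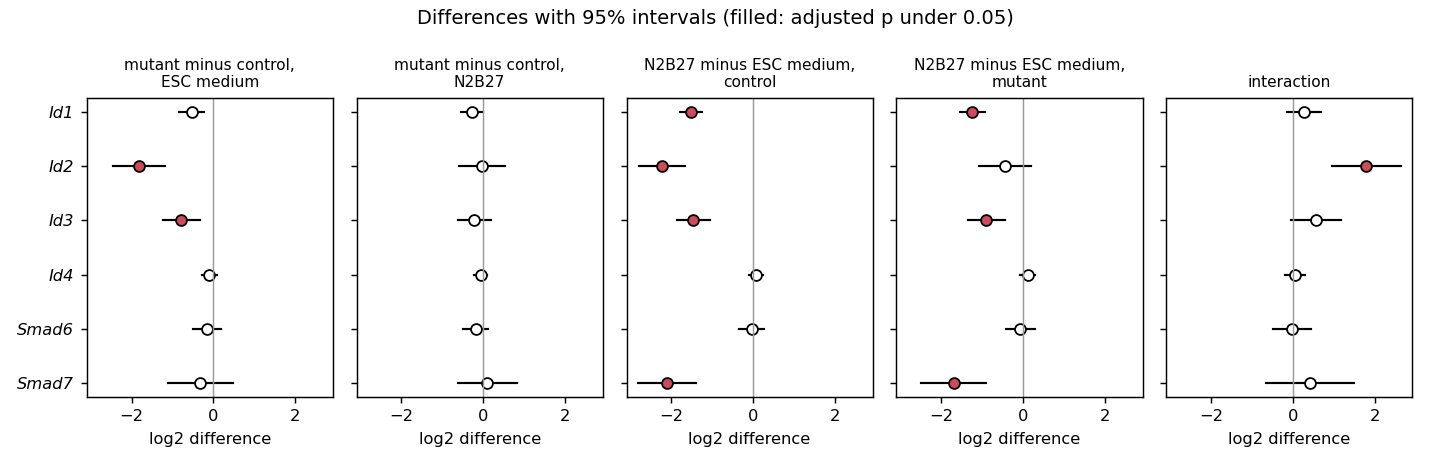
Log2 differences (horizontal axis) with 95% intervals for the 6 genes (vertical axis) in 4 comparisons and the interaction. Filled points were called at an adjusted p under 0.05. Id2 is called in ESC medium (-1.81) and in the interaction (1.79), and the change of medium gives the most calls, 4 in control and 3 in mutant cells.

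Other genes of the pathway were read beside the members in ESC medium. Of 16 SMAD genes and SMAD regulators 2 were called between genotypes, where 6.14% of all genes were. Skil, which encodes a repressor of SMAD complexes, fell by 0.63 (SE 0.14, adjusted p = 0.0291), and Nedd4l, a ubiquitin ligase gene, rose by 0.63 (SE 0.13, adjusted p = 0.0181). Skil was not called once any 1 of the 5 arrays was removed (0.0515 to 0.286), nor was Nedd4l, except on removal of control replicate 1 (highest adjusted p 0.132). None of the genes for SMAD1, SMAD5, SMAD9 and SMAD4 was called. Of 15 receptor genes 3 fell, where 3.05% of all genes did (median -0.23, against -0.009 for all genes), among them Acvr1, which encodes another type I receptor for BMPs, by 0.45 (SE 0.06, adjusted p = 0.00213). Of 23 ligand and antagonist genes 1 fell, Bmp8b, a BMP ligand gene, by 1.32 (SE 0.14, adjusted p = 0.00071). Of 18 other BMP-SMAD targets 0 were called by limma (median -0.02, range -0.32 to 0.72). By quantile normalization neither Acvr1 (adjusted p = 0.215) nor Nedd4l (0.239) was called.

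In N2B27 the receptor list had 4 of 15 genes lower and 1 higher in mutant cells. Of all genes 1.64% were called lower and 4.1% higher in this comparison. Beside Bmpr1a, Tgfbr3, a co-receptor gene, fell by 0.90 (SE 0.13, adjusted p = 0.00471) and Eng, the gene of the co-receptor endoglin, rose by 1.18 (SE 0.18, adjusted p = 0.00544). Of the ligand and antagonist genes 2 fell and 1 rose. Bmp7 fell by 0.85 (SE 0.12, adjusted p = 0.00462) and Bmp4 by 0.97 (SE 0.20, adjusted p = 0.024), both genes of BMP ligands. Bmp4 was not called once control replicate 2 (0.0739), control replicate 3 (0.0942) or mutant replicate 2 or 3 (each 0.0529) was removed. Of the other BMP-SMAD targets 1 rose, Tfap2c, a transcription factor gene of trophoblast and germ cells, by 0.98 (SE 0.12, adjusted p = 0.00238). The SMAD list had 1 gene higher and none lower.

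On the passage to N2B27 in control cells, where 12.8% of all genes rose and 13.3% fell, 5 of the 16 SMAD genes and regulators rose, 3 fell and 8 were not called. Among them were Smad3, a carrier of the Activin and Nodal signal, up by 1.35 (SE 0.11) and Smad4, the partner of all receptor-regulated SMADs, up by 0.81 (SE 0.08). In mutant cells they rose by 1.16 (SE 0.13) and 0.86 (SE 0.09), where 5 of 16 rose and 1 fell, against 14.9% and 10.3% of all genes. Of the 15 receptor genes 7 rose and 1 fell in control cells and 8 rose and 0 fell in mutant cells. Of the 18 other BMP-SMAD targets 4 fell and 1 rose in control cells and 4 fell and 0 rose in mutant cells. Tbx3, a transcription factor gene of naive pluripotency, moved by -1.62 (SE 0.18) in control and -2.07 (SE 0.20) in mutant cells, and Tfap2c by -2.16 (SE 0.12) and -1.61 (SE 0.14). The highest adjusted p of these 4 genes was 0.000184, for Tbx3 in control cells.

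SMAD7 is also a target of the Nodal branch, and 8 genes of that branch and of TGF-beta signalling were measured. In control cells 5 fell and 2 rose on the passage to N2B27 (median -1.31), and in mutant cells 3 fell and 2 rose (median -0.60). Of all genes 13.3% fell and 12.8% rose in control cells, and 10.3% fell and 14.9% rose in mutant cells. Lefty2, a secreted Nodal inhibitor gene, fell by 2.63 (SE 0.27, adjusted p = 0.000135) in control cells. In mutant cells it fell by 3.42 (SE 0.30, adjusted p = 5.39e-05). Nodal itself fell by 2.01 (SE 0.41, adjusted p = 0.00532) in control cells and stood at -1.07 (SE 0.46, adjusted p = 0.128) in mutant cells, where the groups overlapped. Between genotypes 1 of the 8 was called in ESC medium and 0 in N2B27, against 6.14% and 5.74% of all genes. The 1 was Skil, already counted above with the SMAD regulators, and its call was lost without any 1 of the 5 arrays. Targets of LIF signalling through STAT3 were lower in N2B27 in 8 of 11 genes in each genotype (medians -1.50 and -1.37). Among them Tfcp2l1, a naive transcription factor gene, moved by -2.67 (SE 0.16) in control and -2.28 (SE 0.18) in mutant cells. Sgk1, a kinase gene, moved by -2.93 (SE 0.23) and -1.50 (SE 0.25).

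ID proteins bind bHLH factors, of which 18 were measured. From ESC medium to N2B27 in control cells 3 rose and 1 fell, where 26.1% of all genes were called. In mutant cells 5 rose and 0 fell, where 14.9% of all genes rose and 10.3% fell. Tcf12, an E protein gene, rose by 0.91 in control cells (SE 0.14, adjusted p = 0.00131) and by 1.28 in mutant cells (SE 0.16, adjusted p = 0.00033). Tcf4, another E protein gene, rose by 0.60 in control cells (SE 0.11, adjusted p = 0.00292) and by 1.01 in mutant cells (SE 0.12, adjusted p = 0.000285). In ESC medium, where Id2 and Id3 were lower in mutant cells, 1 of the 18 was called (6.14% of all genes), Tcf4, which fell by 0.60 (SE 0.12, adjusted p = 0.0185). That call was lost without mutant replicate 2 (0.194) or 3 (0.0632), and by quantile normalization (0.59). In N2B27, where no member was called, 3 of the 18 were called higher in mutant cells and 0 lower. Among these 3 the call of Neurod1, a neuronal bHLH factor gene, was lost without control replicate 2 (0.0796) or 3 (0.105). Of 18 serum-response and immediate early genes, 2 fell and 0 rose in mutant cells in ESC medium, and 0 fell and 4 rose in N2B27. Of all genes 3.05% fell and 3.09% rose in ESC medium, and 1.64% fell and 4.1% rose in N2B27.

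**Figure D4:**
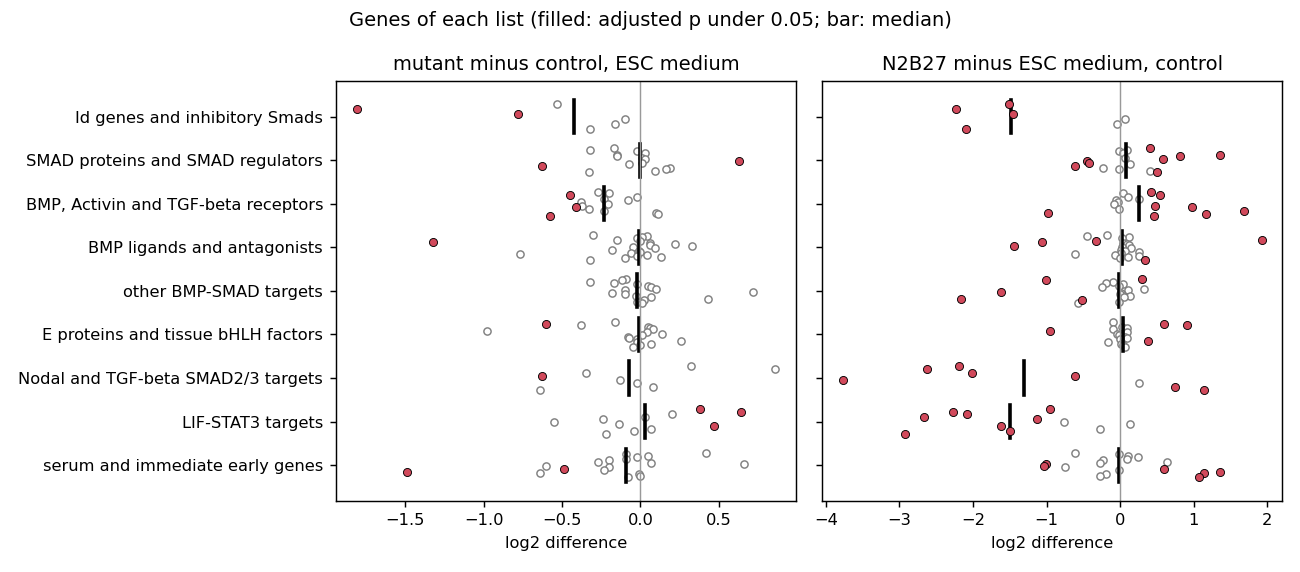
Log2 differences (horizontal axis) of the genes of each list (vertical axis) for mutant minus control in ESC medium and for N2B27 minus ESC medium in control cells. Filled points were called at an adjusted p under 0.05, and the bar is the median of the list. The other BMP-SMAD targets have 0 calls on the left, and 4 lower and 1 higher on the right.

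Markers of other cells were read beside the members, since in bulk RNA fewer cells of a type and less RNA per cell cannot be told apart. Of 9 fibroblast and feeder cell markers, 4 fell, 0 rose and 5 were not called in mutant cells in ESC medium. In this comparison, in which Id2 and Id3 fell, 3.05% of all genes were called lower and 3.09% higher. The median of the 9 was -0.08 (range -2.23 to 0.08), so the drop lay in part of the list. Tagln, of contractile fibres, fell by 2.23 (SE 0.36, adjusted p = 0.0059), Acta2, smooth muscle actin, by 1.88 (SE 0.41, adjusted p = 0.0235) and Col1a1, a collagen gene, by 1.32 (SE 0.20, adjusted p = 0.00417). The mean of the 9 markers was 0.03 to 0.16 on the control arrays and -0.63 to -0.56 on the mutant arrays in ESC medium, and 0.19 to 0.61 and -0.04 to 0.35 in N2B27. Their part in the Id values was not tested. The call of Tagln was lost without mutant replicate 2 (0.077), and that of Acta2 without any 1 of the 5 arrays (0.0508 to 0.161), and both by quantile normalization (0.0537 and 0.204). The markers of primitive endoderm had means of -0.08 to 0.09 over all arrays. The mesoderm markers had means of 0.12 to 0.26 on the control and -0.02 to 0.00 on the mutant arrays in ESC medium, with 0 of 9 called, and of -0.06 to 0.06 and 0.02 to 0.53 in N2B27. The neural progenitor markers had means of -0.14 to -0.01 and -0.02 to 0.02 in ESC medium, and of -0.27 to -0.02 and 0.17 to 0.26 in N2B27. The 10 trophoblast markers had means of 0.26 to 0.33 on the control and -0.22 to -0.15 on the mutant arrays in ESC medium, and of -0.20 to -0.05 and 0.11 to 0.29 in N2B27. In mutant cells in ESC medium 2 of them fell and 0 rose, the keratin genes Krt18, by 2.12 (SE 0.25, adjusted p = 0.00126), and Krt8, with -1.85 (SE 0.11, adjusted p = 2.52e-05). Their part in the Id values was not tested either. The 10 pluripotency markers had means of 1.12 to 1.44 on the control and 1.73 to 1.75 on the mutant arrays in ESC medium. In N2B27 the means were -0.99 to -0.78 and -0.33 to -0.25. Of these 10, 3 were called higher in mutant cells in ESC medium and 4 in N2B27, and 0 lower in both. In N2B27 4.1% of all genes were called higher and 1.64% lower. Averaged over both media 7 of the 10 were called higher, where 5.75% of all genes were. Zfp42 and Klf2 of this list, and Sox1 and Tubb3 of the neural list, lie on chromosome 8. Its genes are left out in an alternative below. The part of these markers in the Id values was not tested.

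The profiles nearest to each member over the 11 arrays were found by the root mean square difference between profiles centred on their own means, among 17042 genes. The nearest to Id1 was Id3, at 0.21, followed by Gpx4, a glutathione peroxidase gene, and Uspl1, a peptidase gene, both at 0.23. The nearest to Id3 were Uspl1 at 0.20, Id1 at 0.21 and Gpx4 at 0.26. Id2 lay farther from any gene, with Id3 at 0.44, Cnpy1 at 0.46 and Id1 at 0.48. Nearest to Smad7 were Nodal at 0.32, Pdgfc, a growth factor gene, at 0.34 and Cnpy1 at 0.35, while Id1 came at rank 15 with 0.42. The spread of the members about their own means was 0.75 for Id1, 1.01 for Id2, 0.71 for Id3 and 1.04 for Smad7. All these profiles share the change of medium. By correlation of profiles instead, 1 of the 3 nearest genes was shared for Id1 and for Id3, and 0 for Id2 and Smad7.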

How the data were processed

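The 11 arrays were 1-colour Affymetrix whole-transcript arrays of mouse ESC RNA. The authors deposited log2 values. The submitters' processing notes name RMA, a method of background correction, quantile normalization and probe summary, and the program Affymetrix Expression Console 1.2. Base 2 is taken as the usual output of RMA and is not stated for these values. The 28815 clusters had then been centred on a baseline each, by an unstated step (not given in the sources used here). Brightness is therefore lost and no filter on dim genes was possible. In 55.8% of clusters at least 1 array is exactly 0.

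Clusters with 1 symbol in the platform annotation (21780) were averaged per gene. Group means of the 4 groups were fitted jointly with limma 3.58.1 in R 4.3.3 (lmFit and eBayes, 7 residual degrees of freedom, prior 3.02, two-sided, Benjamini-Hochberg). Precision is limited by how few arrays there are. The fit was tested on simulated data. Members and lists were chosen with earlier results of these data known. From each list and comparison, up to 4 called genes of largest difference could be named (2 genes if there was no call), and lists are otherwise given by counts. The markers of other cells that are named were chosen after their values were seen. Protein sequences were not used here.

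Same-numbered arrays deviated together in N2B27 (correlations over genes of 0.256, 0.43 and 0.158) and between media in control (0.138, 0.181 and 0.131), so the numbers may pair the arrays there, as read from the values alone. The reported tests are unpaired, and the block by number is an alternative. In ESC medium they were 0.0365 and 0.284, and between media in mutant cells 0.215 and 0.266, over 2 pairs each.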

Additional observations from a re-analysis of the deposited data

Results flagged for a closer look

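The following genotype differences changed with the medium by the interaction test (N2B27 minus ESC medium, limma). Id2 had 1.79 (adjusted p = 0.0447), from -1.81 in ESC medium and -0.03 in N2B27. Bmp8b, a BMP ligand gene, had 1.32 (adjusted p = 0.00904), a call lost without 1 of 11 arrays, mutant replicate 2 in ESC medium (0.0631). Neurod1, a neuronal bHLH factor gene, had 2.23 (adjusted p = 0.0233), a call lost without replicate 2 or 3 of control or mutant in ESC medium or of control in N2B27 (highest 0.123). Rgma, a BMP co-receptor gene, had -0.49 (adjusted p = 0.0218), lost without the same arrays but control replicate 3 in N2B27 (highest 0.119). Bmp15, a ligand gene on the X chromosome, had -0.36 (adjusted p = 0.0489), lost without any array but mutant replicate 2 in N2B27 (highest 0.186). The fibroblast markers Tagln and Col1a1 had 2.35 (adjusted p = 0.0371) and 1.55 (adjusted p = 0.0194). Of the 9 fibroblast and feeder cell markers 7 were not called, and the median of the 9 was 0.0 (range -0.44 to 2.35). The call of Tagln was lost without the 6 arrays named for Neurod1 or mutant replicate 3 in N2B27 (highest 0.174), and that of Col1a1 without either mutant array in ESC medium or control replicate 2 or 3 in N2B27 (highest 0.1). The keratin genes Krt8 and Krt18 had 2.43 (adjusted p = 7.99e-05), a call that held without any 1 array, and 1.83 (adjusted p = 0.0241), a call lost without replicate 2 or 3 of control or mutant in ESC medium or control replicate 2 in N2B27 (highest 0.124).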

How the results depend on the processing

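The 4 member calls for the medium in control cells held in each of the 16 alternatives, and those of Id1 and Smad7 in mutant cells in each of 15. Members called in ESC medium fell from 2 to 1 with each cluster on its own, by quantile normalization, with a robust prior and without genes of chromosomes 8, X and Y, the lost gene being Id3 (0.0504, 0.0764, 0.0529 and 0.0618). Id1 was called there with median centring (0.0407), the compared groups alone (0.0449), array weights (0.00241) and the replicate block over all groups (0.00322) or these groups (0.00554). In N2B27 members called rose from 0 to 1 (Id1) with array weights (0.0245) and the block over all groups. In the interaction they went from 1 to 0 by quantile normalization (Id2 at 1.40, 0.272) and without both N2B27 arrays numbered 2, and to 2 with the block (Id3, 0.0415). Without 1 array each, members called ranged from 0 to 2 in ESC medium, 0 to 3 averaged over both media, 4 to 4 and 2 to 3 for the medium in control and mutant cells, and 0 to 1 in the interaction.

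Genes called in ESC medium numbered 1224, and 491 by quantile normalization, 3138 with array weights, 766 without those chromosomes, 3570 with the block in these groups and 304 to 1428 without 1 array. The share of higher calls was 50.2%, 66.4% by quantile normalization and 35.0% without those chromosomes. Leaving out those chromosomes thus took away mostly higher calls. The 3.09% of all genes called higher in ESC medium therefore rests in part on genes of these chromosomes, and the cause was not tested. In N2B27 they numbered 1144, and 397 with the compared groups alone, 2882 with array weights, 610 without those chromosomes, 674 without both arrays numbered 2 and 454 to 1204 without 1 array. Averaged over both media there were 1992, and 1245 both by quantile normalization and without those chromosomes, 4091 with array weights and 907 to 2256 without 1 array. For the medium in mutant cells there were 5018, and 7689 with array weights and 2720 to 5956 without 1 array, and in control cells 5205 and 3987 to 4509. Interaction calls numbered 422, and 172 by quantile normalization, 1782 with array weights, 657 with the block and 59 to 633 without 1 array.

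Uncalled differences changed sign as follows. In N2B27 Smad7 was -0.27 by quantile normalization and without both arrays numbered 2, -0.24 with array weights, -0.17 without control replicate 1, and -0.31 to 0.37 over all left-out arrays. There Id2 was 0.06 without control replicate 2 and -0.29 to 0.27 over all, and Id4 0.02 with array weights and -0.11 to 0.01 over all. Averaged over both media Smad7 was 0.00 without control replicate 3 in N2B27 and -0.31 to 0.03 over all. For the medium in control cells Id4 was -0.01 to 0.12 over left-out arrays, and Smad6 0.02 with array weights and -0.10 to 0.02 over left-out arrays. In mutant cells Smad6 was 0.11 with the block in these groups and -0.20 to 0.11 over left-out arrays. In the interaction Id4 was -0.02 to 0.12 over left-out arrays, and Smad6 0.03 with the block and -0.16 to 0.15 over left-out arrays. The cause was not tested. With 2 or 3 arrays a group, calls near the threshold turn on single arrays, and centring leaves signal over background unknown.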

Other observations

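Arrays numbered 2 read highest for most, but not all, of these genes in each of the 4 groups. On the mutant arrays about as many of all genes were highest on number 2 as not. In ESC medium the control array numbered 2 was the highest of its group for 5 of the 6 members, where 30.0% of all genes were highest on it. The mutant array was the higher of 2 for 5 of the 6, against 48.1%, among them Smad6, which read 0.00 on both. In N2B27 the control array was the highest for 4 of the 6, against 32.5%, and the mutant array for 5 of the 6, against 50.7%. Without both N2B27 arrays numbered 2, an alternative chosen after seeing the data, Id1, Id2 and Id3 were each called in ESC medium as lower in the mutant, with adjusted p of 0.0158, 0.00367 and 0.0252, while the interaction of Id2 was 1.61 and not called (0.0589).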
